A study of Mus musculus with 31 samples.

Results

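The 31 arrays of BXD mouse strains were ordered by the level of 2 alpha-1-antitrypsin transcripts, Serpina1a and Serpina1c, and the 10 arrays at the top of this order were compared with the 10 at the bottom across all other genes. The order was set by a score, the mean of the log2 ratios of the Serpina1a probe and the Serpina1c probe on an array. The groups were thus selected on these measured values, so levels of Serpina1a and Serpina1c are a description here, and so are those of their relatives on the same arrays. Of the 31 arrays, 20 were in the comparison and 11 were in neither group. Each array held a different BXD strain, a recombinant inbred line that carries at any locus the C57BL/6J or the DBA/2J allele. RNA of 3 male mice aged 8 weeks was pooled per strain and hybridized with a C57BL/6J reference on the same array, so all groups shared sex, age and reference. Values are read as log2 of strain over reference; the sources used here give neither base nor direction, and with the opposite direction every sign would turn. Sample titles name kidney and the source fields name whole brain. In the data, 24 measured proximal tubule genes had a median SD over the 31 arrays of 0.573 and 21 neuron and glia genes one of 0.30, beside 0.358 for all genes. Ratios to a reference of the same tissue give no level of a tissue's markers, so the tissue was not settled by them.

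Alpha-1-antitrypsin is a serpin, an inhibitor that traps a serine protease by changing its own shape, and its best known target is neutrophil elastase. Hepatocytes make most of the plasma protein, and tubule cells of the kidney take up filtered protein and can also transcribe Serpina1 genes. Mice carry several Serpina1 copies side by side on chromosome 12, whereas humans have a single SERPINA1 gene. Serpina1a to Serpina1e are alike in sequence, so a probe named for any of them may also bind transcripts of another. The likeness of Serpina1f to them was not measured here. Probe sequences were not used here, and the genes are thus named as the array design names them. In pooled tissue, fewer cells that express a gene and less RNA per cell cannot be told apart.

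The promoters show how alike Serpina1a to Serpina1e are at their start sites. The 300 bases around the start site, 250 before it and 50 after, are given for the 2 genes that ranked the arrays and for 2 others. These are Serpina1b, the other copy whose values followed the score most closely, and Serpina1f, the copy whose group means differed least. Sequences are from RefSeq on assembly GRCm38.p6, minus strand, written 5′ to 3′, at chr12:103863570-103863869 for Serpina1a, chr12:103904901-103905200 for Serpina1c, chr12:103738140-103738439 for Serpina1b and chr12:103695480-103695779 for Serpina1f. Capitals mark the word GTTAAT, part of the site known for hepatocyte nuclear factor 1.
Serpina1a: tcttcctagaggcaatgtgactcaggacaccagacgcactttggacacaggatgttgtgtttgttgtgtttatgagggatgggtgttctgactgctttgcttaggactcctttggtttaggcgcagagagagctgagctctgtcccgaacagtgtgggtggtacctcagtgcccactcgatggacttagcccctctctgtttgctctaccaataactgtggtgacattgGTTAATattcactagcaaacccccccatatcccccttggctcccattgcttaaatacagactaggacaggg
Serpina1c: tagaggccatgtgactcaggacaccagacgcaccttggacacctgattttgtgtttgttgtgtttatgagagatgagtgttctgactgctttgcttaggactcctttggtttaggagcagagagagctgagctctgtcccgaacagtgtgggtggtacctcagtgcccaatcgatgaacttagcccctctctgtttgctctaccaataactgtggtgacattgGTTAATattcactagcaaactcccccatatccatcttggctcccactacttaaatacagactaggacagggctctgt
Serpina1b: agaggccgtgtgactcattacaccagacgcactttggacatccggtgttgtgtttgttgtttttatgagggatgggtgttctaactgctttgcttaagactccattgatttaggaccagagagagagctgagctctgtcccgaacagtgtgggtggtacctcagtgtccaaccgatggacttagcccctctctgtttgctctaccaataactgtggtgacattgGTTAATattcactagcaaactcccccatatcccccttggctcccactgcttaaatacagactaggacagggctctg
Serpina1f: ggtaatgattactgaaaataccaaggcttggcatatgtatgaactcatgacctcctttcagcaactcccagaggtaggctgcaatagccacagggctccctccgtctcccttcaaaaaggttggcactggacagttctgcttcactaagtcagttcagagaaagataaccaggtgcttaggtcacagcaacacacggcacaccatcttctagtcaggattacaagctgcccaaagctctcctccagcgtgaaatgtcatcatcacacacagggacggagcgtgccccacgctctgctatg
Aligned, the Serpina1a and Serpina1c promoters were identical at 94.9% of 294 columns, Serpina1a and Serpina1b at 92.5% of 295, and Serpina1b and Serpina1c at 92.0% of 300. The word GTTAAT, searched on both strands, stood in the promoters of Serpina1a, Serpina1b, Serpina1c, Serpina1d and Serpina1e and was not among the letters of the Serpina1f window. It was held by 2332 of 32851 mouse promoters of the same length, or 7.1%. A match is a description of letters and not of a bound site.

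The highest scores were those of BXD12 at 2.17, BXD2 at 2.16, BXD31 at 1.60, BXD21 at 1.26 and BXD34 at 0.97. Next came BXD5 at 0.92, BXD18 at 0.91, BXD22 at 0.83, BXD1 at 0.54 and BXD36 at 0.48, the last array inside the high group, and BXD14 at 0.38 was just outside it. At the other end, BXD32 at -0.83 was just outside the low group and BXD19 at -0.86 just inside, followed by BXD27 at -0.94, BXD16 at -0.96, BXD33 at -1.38, BXD8 at -1.46, BXD6 at -1.66, BXD38 at -1.74, BXD9 at -1.76, BXD24 at -1.80 and BXD15 at -1.93. The edges of both groups thus fell inside a run of close values rather than at a break. The widest gaps in the order were 0.56 between BXD2 and BXD31, 0.45 between BXD20 and BXD40, and 0.43 between BXD16 and BXD33. The mean score was 1.18 ± 0.607 (SD, n = 10) in the high arrays and -1.45 ± 0.398 (SD, n = 10) in the low arrays.

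**Figure D1:**
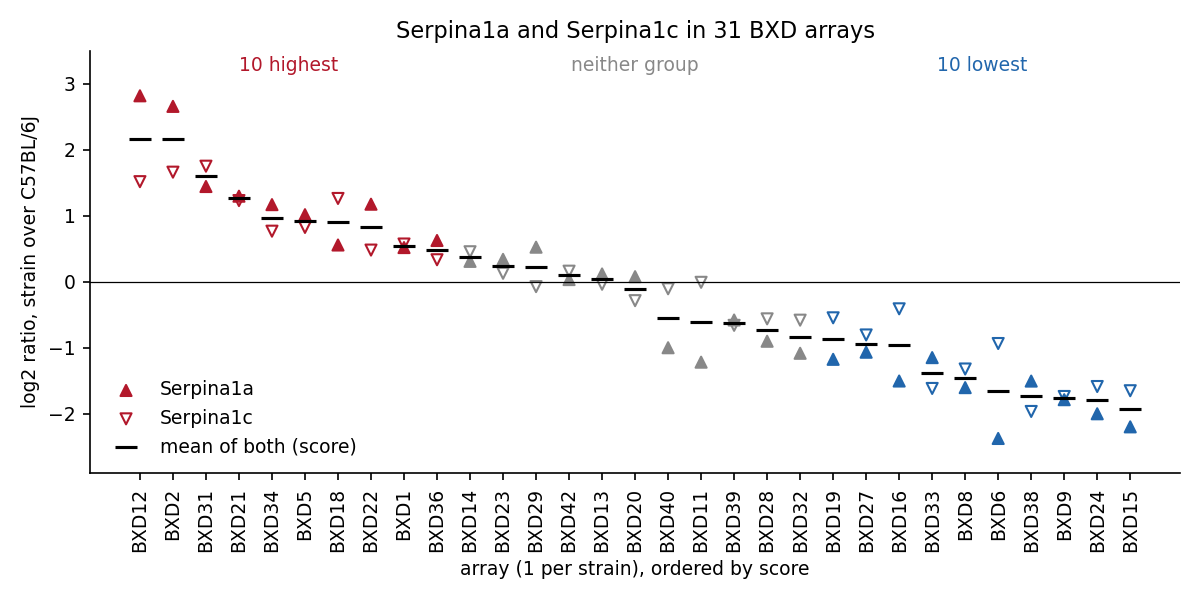
Log2 ratios of Serpina1a (filled triangles), Serpina1c (open triangles) and their mean, the score (bars), on each of the 31 arrays, ordered by score; red marks the 10 highest, blue the 10 lowest and grey the 11 arrays in neither group. Scores run from 2.17 in BXD12 to -1.93 in BXD15, with no break at the edges of the groups.

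Both groups drew on strains of low and high number; the division at BXD14 was taken from an earlier grouping of these arrays by their values. The high group held 4 strains up to BXD14 and 6 later ones, and the low group 3 and 7; each held 2 strains of BXD33 to BXD42. Arrays correlated with each other at a median of 0.363 over all probes, at 0.376 within the high group, 0.306 within the low group and 0.356 between the groups. The correlation of the score with the first principal component of the arrays, which held 20.7% of the variance, was 0.12 over 31 arrays. Gapdh, a glycolytic gene with 232 spots, had array means of -0.26 to 0.62 in the high arrays and of -1.20 to 0.60 in the low arrays, with medians of 0.24 and 0.14. The lowest of these was BXD15, which also had the lowest score, and its share in the results was examined by leaving it out.

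Among the Serpina1 genes, Serpina1a ran from 0.52 to 2.82 in the high arrays, with a median of 1.17, and from -2.38 to -1.07 in the low arrays, with a median of -1.56. Serpina1c ran from 0.33 to 1.75 (median 1.03) in the high arrays and from -1.97 to -0.41 (median -1.46) in the low arrays. Neither gene overlapped between the groups, which the choice of arrays sets in part. The differences in mean log2 ratio, high minus low, were 2.96 for Serpina1a and 2.30 for Serpina1c. Over all 31 arrays the values of these probes correlated at r = 0.899, a description of probes that share the arrays.

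Serpina1b, a neighbouring copy that had no part in the ranking, ran from 0.45 to 3.42 (median 1.27) in the high arrays and from -2.53 to -0.17 (median -0.80) in the low arrays. Its groups did not overlap, and their means differed by 2.73. Serpina1e ran from 0.28 to 2.65 (median 0.70) in the high arrays, and its highest low array was at the same rounded value of 0.28; the means differed by 1.57, with every high array above every low one. By size, the differences of Serpina1b and Serpina1e ranked at 2 and 4 among 15096 genes. Serpina1a and Serpina1c held ranks 1 and 3, which the choice of arrays sets in part. Serpina1d overlapped widely, from -1.14 to 0.48 (median 0.05) in the high arrays and from -1.98 to 0.40 (median -0.96) in the low arrays, a difference of 0.90 that ranked at 14. Serpina1f ran from -0.15 to 0.64 in the high arrays and from -1.77 to 0.09 in the low arrays. Its difference of 0.65 ranked at 106. For Serpina1f 7 high arrays lay above every low one, and for Serpina1d 1 did. No test is given for these genes, since cross-binding of their probes was not tested. The share of all genes whose groups do not overlap is not given here, so the lack of overlap is a description only.

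The copies also varied to different degrees over the panel. The SD over 31 arrays was 1.46 for Serpina1b, 1.37 for Serpina1a, 1.04 for Serpina1c, 0.94 for Serpina1e, 0.75 for Serpina1d and 0.51 for Serpina1f, beside a median of 0.358 over all genes. Correlations with the score were 0.907 for Serpina1b, 0.775 for Serpina1e, 0.641 for Serpina1f and 0.551 for Serpina1d (n = 31 arrays). Had Serpina1b ranked the arrays in place of the score, 9 of the 10 high arrays and 6 of the 10 low arrays would have been the same. For Serpina1f alone these numbers were 7 and 5. The copies thus ranked the strains in similar but not equal order.

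**Figure D2:**
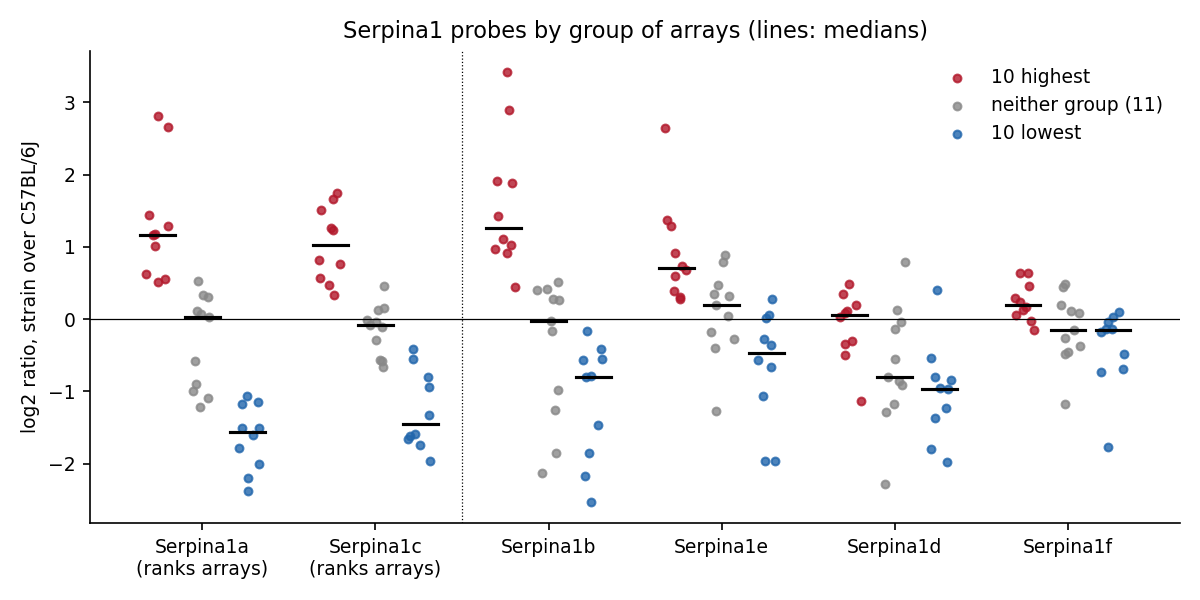
Log2 ratios of the 6 Serpina1 probes in the 10 highest (red), 11 intermediate (grey) and 10 lowest (blue) arrays, each point an array and each line a median. The first pair of genes ranked the arrays. High and low points do not overlap for Serpina1a, Serpina1c, Serpina1b and Serpina1e and do overlap for Serpina1d and Serpina1f. For Serpina1e the lowest high array and the highest low array both round to 0.28.

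Across the 15090 genes left after all Serpina1 genes were set aside, 0 passed an adjusted p of 0.05 (0% of genes tested; limma with Benjamini-Hochberg adjustment). At an unadjusted p under 0.05, 732 genes or 4.85% differed, of which 439 (2.91%) had the higher mean in the high arrays and 293 (1.94%) in the low arrays. The median standard error of a difference was 0.161 on the log2 scale, and the median difference was 0.01. Differences ran from -0.98 for Vmn1r25, a vomeronasal receptor gene, to 1.19 for Rtn1, a reticulon of the endoplasmic reticulum, and 7 genes differed by more than 1. The groups were cut from values of the same arrays, and there was 1 array per strain, so these p-values measure the spread between arrays, and an effect of a strain cannot be told apart from one of its array.

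**Figure D3:**
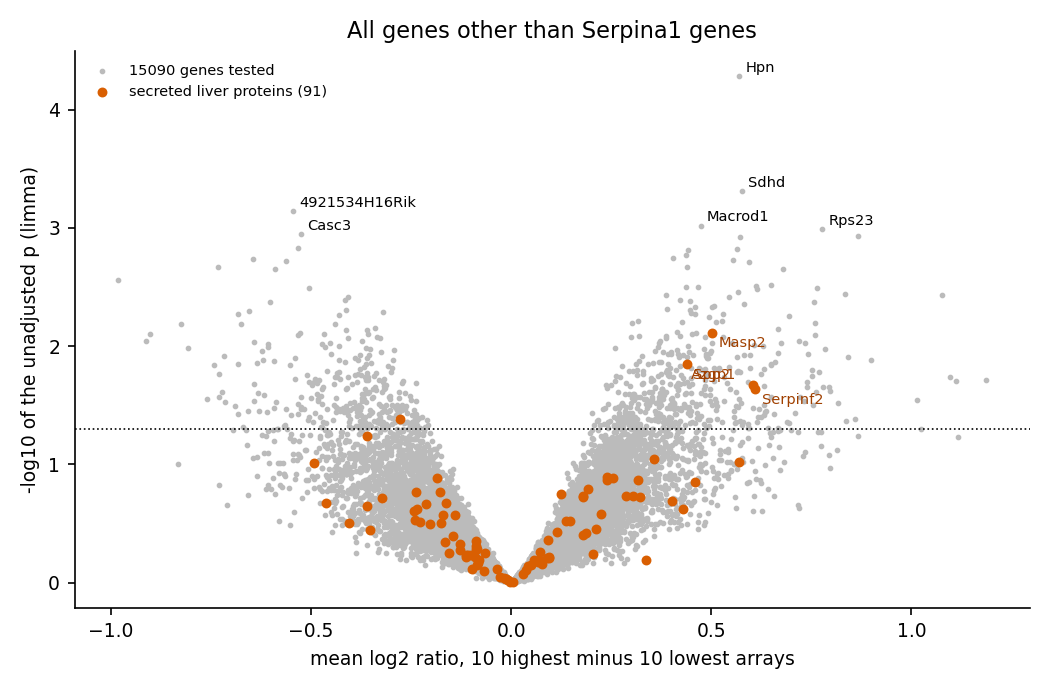
Difference in mean log2 ratio between the 10 highest and 10 lowest arrays (horizontal) against -log10 of the unadjusted limma p (vertical) for 15090 genes in grey, with 91 secreted liver genes in orange; the dotted line marks p = 0.05. Hpn lies highest with a difference of 0.57, and the orange points spread on both sides of 0.

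The smallest p was that of Hpn, which encodes hepsin, a serine protease anchored in the membrane of hepatocytes and tubule cells. Hpn ran from 0.22 to 0.80 (median 0.47) in the high arrays and from -0.54 to 0.23 (median -0.06) in the low arrays. The groups overlapped only at their edges, with 9 of the 10 high arrays above every low array. The means differed by 0.57 ± 0.115 (SE; limma, unadjusted p = 5.2e-05, adjusted p = 0.786), which missed the threshold. In the 11 arrays of neither group Hpn ran from 0.14 to 0.76 with a median of 0.43, nearer to the high arrays than to the low ones. Within the strains up to BXD14 the Hpn difference was 0.55 and within the later strains 0.55.

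Prss1, a trypsin gene from a family of closely related copies, had the values most like the score outside the Serpina1 genes, with r = 0.725 and Spearman's rho = 0.734 over 31 arrays. It lay between 0.37 and 0.64 (median 0.48) in the high arrays, a narrow band, and between -0.62 and 0.63 (median 0.07) in the low arrays. All 10 high arrays were above the low median, and 9 of them lay within the range of the low arrays. The means differed by 0.44 ± 0.123 (SE; limma, adjusted p = 0.946). Hpn was next in likeness (r = 0.682, rho = 0.685), followed beyond Serpina1f by Alpk2 (r = -0.623), Aifm3 (r = 0.621) and Rpl30 (r = 0.620). Of the other listed trypsin genes, Prss2 differed by -0.09 (r = -0.017) and Prss3 by -0.44 (r = -0.112). These correlations describe probes that share arrays and normalization.

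The other genes of smallest p with the higher mean in the high arrays were Sdhd, Macrod1, Rps23, Cox6c, Mrps18c and Gdi2. Sdhd and Cox6c encode parts of mitochondrial respiratory complexes and differed by 0.58 ± 0.142 and 0.87 ± 0.234 (SE). Rps23 and Mrps18c encode proteins of the cytosolic and the mitochondrial ribosome and differed by 0.78 ± 0.207 and 0.57 ± 0.155. Macrod1, a mitochondrial hydrolase of ADP-ribose modifications, differed by 0.47, and Gdi2, a regulator of Rab GTPases, by 0.56. For each of the 6 the adjusted p was 0.946, and the ranges of the groups overlapped.

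In the other direction the smallest p-values belonged to 4921534H16Rik, Casc3, 1700017L05Rik, Dkkl1, Srgn, Hspb7, Ube3a and Vmn1r25, again with an adjusted p of 0.946 each. Casc3, a core protein of the exon junction complex, ran from -1.29 to -0.35 in the high arrays and from -0.65 to 0.29 in the low arrays, a difference of -0.53. It was -1.04 within the strains up to BXD14 and -0.27 within the later ones, which the test between these strain sets did not separate after adjustment (limma, unadjusted p = 0.0069, adjusted p = 0.336). Srgn, the proteoglycan serglycin of secretory granules, differed by -0.56, and Ube3a, a ubiquitin ligase, by -0.59. Hspb7, a small heat shock protein best known in heart, ran from -1.65 to 0.15 (median -0.87) in the high arrays and from -0.43 to 0.31 (median 0.08) in the low arrays. The 11 arrays of neither group ran from -1.98 to 0.13 with a median of -0.73, so low values were not limited to the high arrays, and r with the score over 31 arrays was -0.333. Between the full groups the difference was -0.73 ± 0.212 (SE). The division at BXD14 was drawn from values of these arrays, and fits within its parts were chosen after seeing the data. Among the 6 high and 7 low arrays after BXD14 the Hspb7 difference was -1.22 ± 0.173 (limma, adjusted p = 0.0465). No other gene was called there. Among the 4 high and 3 low arrays up to BXD14 the Hspb7 difference was 0.02. Under all other alternatives the adjusted p of Hspb7 was 0.297 to 0.9996. A limma test of the difference between these strain sets gave an adjusted p of 0.243 for Hspb7 and called 0 genes. In that test 1572 of 15090 genes had an unadjusted p under 0.05, where 732 did between the full groups.

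**Figure D4:**
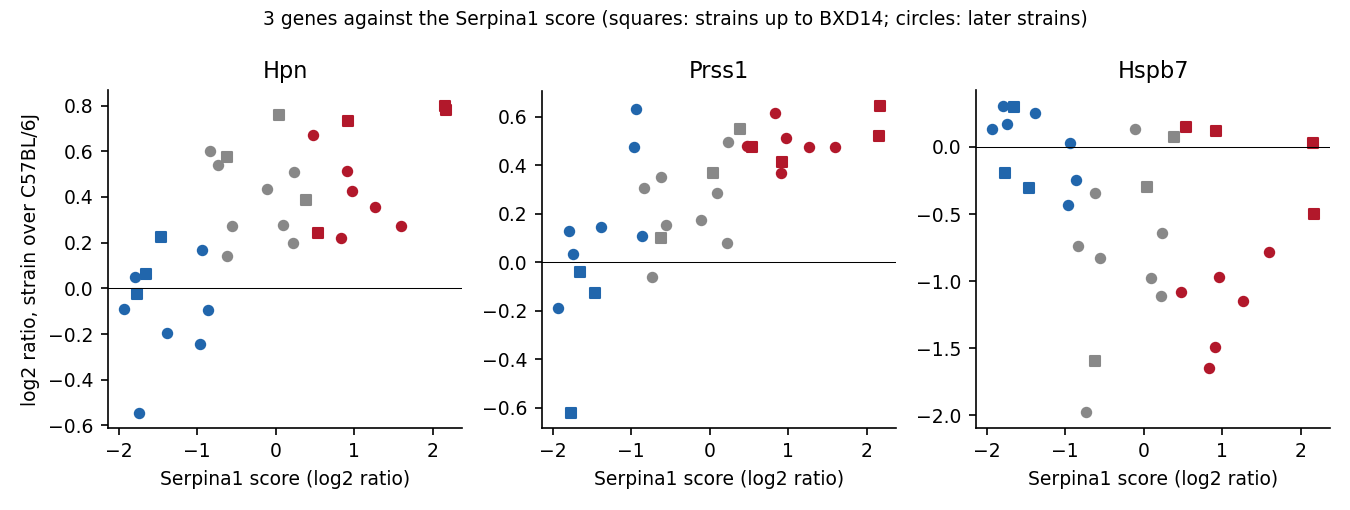
Log2 ratios of Hpn, Prss1 and Hspb7 (vertical) against the Serpina1 score (horizontal) on 31 arrays; red, grey and blue mark the high, intermediate and low arrays, squares strains up to BXD14 and circles later strains. The red Prss1 points lie in a narrow band from 0.37 to 0.64. For Hspb7 the red circles lie below the red squares, of which BXD12 is lowest at -0.50.

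Genes that lie beside the Serpina1 cluster were read next, since BXD strains inherit whole stretches of a chromosome from either parent. Gene order was that of the RefSeq table, and no marker genotypes were used. Among the 20 nearest measured genes on each side, 0 of 40 had an adjusted p under 0.05 and 0 an unadjusted p under 0.05, where 4.85% of all genes had the latter. Their median difference was 0.05, with a range from -0.36 for Serpina6 to 0.45 for Gskip. Widening the stretch to 50 genes on each side gave 3 of 100, all with the lower mean in the high arrays, and all of chromosome 12 gave 25 of 494 or 5.06%, 11 higher and 14 lower. These shares are near that of all genes or below it. Rtn1, with the largest difference of all genes tested (1.19; limma, unadjusted p = 0.019, adjusted p = 0.946), also lies on chromosome 12. It was not among the 50 nearest genes on each side, whose largest difference was 0.45. With the score as a covariate over 31 arrays, 4 of the 40 nearest had an unadjusted p under 0.05, 2 in each direction, where 8.2% of all genes did in that fit, and 0 passed after adjustment.

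Nearest on one side was Serpina6, which encodes the corticosteroid carrier transcortin. It ran from -0.11 to 0.59 (median 0.13) in the high arrays and from -0.18 to 1.57 (median 0.57) in the low arrays. The sign was opposite to that of the Serpina1 copies and the groups overlapped (difference -0.36 ± 0.18, SE; limma, unadjusted p = 0.057, adjusted p = 0.946). Beyond it on the same side, differences were 0.07 for Ppp4r4, 0.38 for Ifi27, 0.19 for Ifi27l2a, 0.16 for Ddx24, -0.10 for Otub2, 0.09 for Asb2, 0.09 for Prima1, -0.11 for Cox8c and -0.13 for Btbd7. Ifi27 and Ifi27l2a are interferon-induced genes, and Ifi27 reached 1.93 in 1 high array, but its standard error was 0.258.

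On the other side the nearest measured genes were themselves serpins of the same clade. Serpina9, known from germinal centre B cells, differed by -0.07 ± 0.146 (SE), and Serpina12, the adipose serpin vaspin, by 0.11 ± 0.143. Serpina5, the inhibitor of activated protein C, differed by -0.22 ± 0.127 (unadjusted p = 0.090) and correlated with the score at -0.545 over 31 arrays. Serpina3n, an acute-phase relative of antichymotrypsin, differed by 0.06 ± 0.121. For none of these did the high arrays stand clear of the low ones. The signs for Serpina9 and Serpina3n turned under other settings, given with the limits. Further out, differences were -0.09 for Gsc, -0.02 for Dicer1, -0.25 for Clmn, 0.27 for Snhg10, 0.07 for Glrx5 and -0.07 for Tcl1b2.

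**Figure D5:**
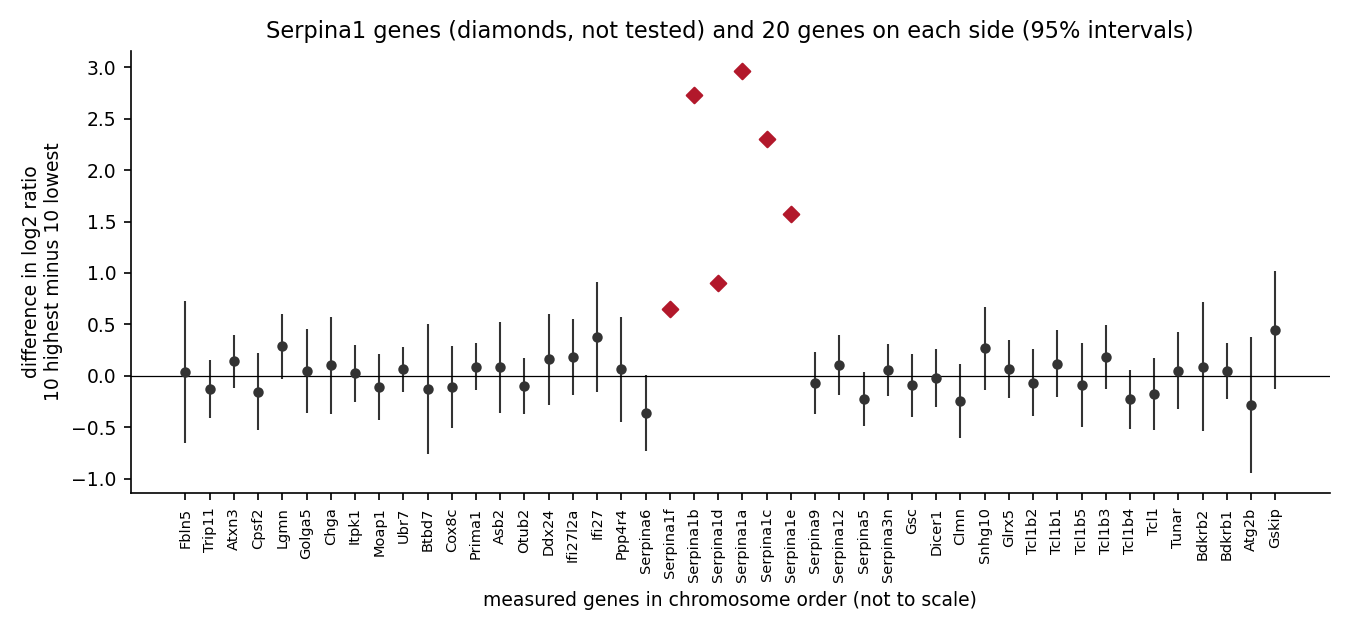
Difference in mean log2 ratio, 10 highest minus 10 lowest arrays, for the Serpina1 genes (diamonds, not tested) and the 20 nearest measured genes on each side (points with 95% confidence intervals from limma), in chromosome order and not to scale. Every interval of a neighbour includes 0; the Serpina1 differences are drawn for position only, since Serpina1a and Serpina1c ranked the arrays.

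Over the 26 other measured serpin genes, 2 (7.69%) had an unadjusted p under 0.05, beside 4.85% of all genes, and the median difference was -0.04. Serpinf2, the liver-made antiplasmin, differed by 0.61 ± 0.25 (SE; limma, unadjusted p = 0.023), and Serpinh1, a collagen chaperone, by 0.29 ± 0.14. Serpini2 had the most negative difference at -0.66 (unadjusted p = 0.069). The adjusted p rounded to 0.946 or more for every one of the 26.

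Secreted proteins of the liver were the other group of interest, since alpha-1-antitrypsin is chiefly one of them. Of 105 listed genes 91 were measured, and 0 passed the adjusted threshold. At an unadjusted p under 0.05 there were 5, or 5.49%, beside 4.85% of all genes: Masp2, Spp2, Azgp1 and Serpinf2 with the higher mean in the high arrays and Igfbp2 with the lower. Without BXD33 there were 3. Differences lay above 0 for 43 genes and below 0 for 48, with a median of -0.01 beside 0.01 for all genes. The mean of the list per array ran from -0.19 to 0.03 in the high arrays and from -0.16 to -0.00293 in the low arrays, so the groups overlapped almost entirely. With the score as a covariate over all 31 arrays, 13 of the 91 had an unadjusted p under 0.05, 7 with a positive and 6 with a negative slope, where 8.2% of all genes did, and 0 passed after adjustment.

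Masp2, a protease of the lectin pathway of complement, ran from 0.10 to 1.31 (median 0.48) in the high arrays and from -0.76 to 0.46 (median 0.14) in the low arrays. Its groups overlapped, with 5 high arrays above every low one (difference 0.50 ± 0.172, SE; limma, unadjusted p = 0.0077, adjusted p = 0.946). Spp2, a cystatin-like phosphoprotein of plasma and bone, ran from 0.41 to 1.65 in the high arrays and from -0.36 to 0.95 in the low arrays, a difference of 0.44. The Spp2 difference was larger by 1.09 ± 0.276 (SE) in the strains up to BXD14 than in the later ones (limma, unadjusted p = 0.00072, adjusted p = 0.293). That division of strains was drawn from values of these arrays. Of the intermediate arrays, 1 was at 3.18 for Spp2, above all 20 of the comparison. Azgp1, a zinc-binding glycoprotein, differed by 0.60 and Igfbp2, a carrier of insulin-like growth factors, by -0.28.

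By role, 1 of 16 carriers, 0 of 14 apolipoproteins, 1 of 21 coagulation proteins, 1 of 10 protease inhibitors, 1 of 13 complement proteins and 1 of 17 acute-phase proteins and hormones had an unadjusted p under 0.05. Of all genes, 4.85% had such a p. Alb, serum albumin, ran from -0.37 to 1.23 (median 0.42) in the high arrays and from -1.51 to 0.99 (median 0.21) in the low arrays, which overlapped over most of their range (difference 0.32 ± 0.24, SE). Ttr, the thyroxine carrier transthyretin, spread widely in both groups, from -0.26 to 3.61 and from -1.81 to 4.95, and differed by 0.34 ± 0.72. Apoa1 of high-density lipoprotein differed by -0.24 ± 0.17, fibrinogen's Fga by -0.02 ± 0.16, and the hepatic acute-phase genes Saa1 and Hp by 0.14 and -0.08. Serping1 and Serpinc1, inhibitors of complement and of thrombin, differed by 0.46 ± 0.30 and 0.32 ± 0.20. Of 20 genes of hepatocyte enzymes and transporters, 1 (5%) had an unadjusted p under 0.05: Cyp2e1, a cytochrome P450 also made in tubule cells, at 0.56. Hpd, of tyrosine breakdown, differed by 0.42 and Cps1, of the urea cycle, by 0.15.

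Factors known to act on the human or mouse antitrypsin promoter, and the interleukin signals that raise it, were also listed. Of these, 1 of 17 measured genes (5.88%) had an unadjusted p under 0.05, beside 4.85% of all genes. This was Osmr, the oncostatin M receptor, at 0.35 ± 0.149 (SE); Il6ra, an interleukin receptor, differed by 0.22. Hnf4a, a hepatocyte nuclear factor, ran from -0.34 to 0.36 in the high arrays and from -0.34 to 0.26 in the low arrays and differed by 0.07 ± 0.11. The median of the list was 0.02. Among 22 measured proteases and receptors that antitrypsin or its complexes bind, 3 (13.6%) had an unadjusted p under 0.05. They were Prss1, Prss8 (prostasin of the tubule, 0.30) and Mmp9 (a gelatinase, 0.69). Lrp1, the receptor that clears protease complexes, differed by -0.41 ± 0.24, and the median was -0.03.

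Genes of the secretory route and of the quality control that antitrypsin passes in the endoplasmic reticulum were read as well. At an unadjusted p under 0.05 there were 6 of 34 or 17.6%, beside 4.85% of all genes. All 6 had the higher mean in the high arrays, and 0 passed after adjustment. Vcp, the ATPase that pulls misfolded proteins from the membrane, ran from 0.27 to 2.48 (median 0.84) in the high arrays and from -0.45 to 1.19 (median 0.32) in the low arrays, a difference of 0.72 ± 0.252 (SE). The others were Hsp90b1, Sar1a, Map1lc3b, Mcfd2 and Man1b1, with differences of 0.38, 0.38, 0.34, 0.42 and 0.28. The median of the 34 was 0.11. It was 0.24 within the strains up to BXD14 and 0.03 within the later strains. Without BXD2 and BXD12, the arrays of highest score, 1 gene was left at an unadjusted p under 0.05, where 3.84% of all genes were. Without BXD15 alone there were 3, where 3.45% of all genes had such a p.

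Kidney genes mostly had positive differences, and their counts and medians moved with the arrays and settings used. Of 24 proximal tubule genes, 22 were above 0, with a median of 0.38. At an unadjusted p under 0.05 there were 2 (8.33%, beside 4.85% of all genes): Slc34a1, the phosphate transporter, at 0.70 ± 0.227 (SE), and Cyp2e1. With single arrays left out, 3.45% to 6.05% of all genes had an unadjusted p under 0.05. The list's count in either direction was 7 without BXD31, 6 without BXD21, BXD22, BXD27 or BXD8, and 5 without BXD24. Of the 6 without BXD22, 1 had the lower mean in the high arrays. The count was 4 without BXD34, BXD1 or BXD19, 3 without BXD6, BXD38 or BXD9, 1 without BXD5 or BXD36, and 2 otherwise. It was 9 with the score as a covariate over 31 arrays, where 8.2% of all genes had such a p, and 8 with Serpina1c alone as the ranking gene, where 7.3% did; 0 passed after adjustment in either. The list's mean per array ran from 0.06 to 1.05 (median 0.38) in the high arrays, highest in BXD2, and from -0.55 to 0.45 (median 0.17) in the low arrays, lowest in BXD38. Leaving out BXD15 and BXD38 before the ranking brought the median to 0.19, and leaving out BXD2 and BXD12 to 0.23, while 8 against 8 arrays gave 0.46. Of 11 androgen-responsive kidney genes, 10 were above 0, with a median of 0.47, which became 0.17 and 0.20 without the same arrays; Kap, the kidney androgen-regulated protein, ran from -0.37 to 2.96 in the high arrays and from -1.67 to 3.11 in the low arrays and differed by 1.12 ± 0.56, and Adh1, an alcohol dehydrogenase, by 0.84. The lists share Kap, and their part in the Serpina1 order was not tested.

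Markers of other cell types were read in the same way. In the loop and distal nephron list 1 of 15 genes (6.67%) had an unadjusted p under 0.05, beside 4.85% of all genes. This was the sodium channel subunit Scnn1a at 0.57, and the median of the list was 0.10. None had such a p among 6 podocyte, 9 endothelium, 9 macrophage, 9 lymphocyte, 21 neuron and glia, 8 adipose, 8 exocrine pancreas, 9 skeletal muscle and 8 adrenal genes. Their medians were -0.01, 0.10, 0.19, 0.04, 0.00086, 0.04, -0.08, -0.09 and 0.13 in that order. Of the exocrine pancreas genes, Pnliprp1 and Zg16 had the smallest p and differed by -0.25 and -0.23, against the sign of Prss1. Among lymphocyte and macrophage genes Ptprc differed by 0.28 and Lyz2 by 0.19, and of the neuron genes Syn1 differed by -0.40.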

How the data were processed

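The deposited table held log2 ratios of 23040 probes on 31 arrays, made by the authors with R 2.0.0 and limma per the submitters' processing notes; the steps are not given in the sources used here. Sorted values were identical in all columns, so the arrays had been quantile normalized. Depth has no counterpart here; signal over background is unknown, and precision rests on how many arrays there are. Probes with 1 gene name (16874; 134 had several and 6032 none) were averaged over 15096 genes. Gene order came from RefSeq (GRCm38.p6; 16196 probes matched).

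High and low arrays were compared with limma 3.58.1 in R 4.3.3 (lmFit, eBayes, 2-sided, Benjamini-Hochberg over 15090 genes, threshold 0.05), tested on simulated data first. Members and lists were chosen with earlier results of these data known. Genes named are the 8 of smallest p per direction, the 10 nearest measured genes on each side, clade A serpins, and in each of 17 lists the 2 of smallest p; further examples were chosen after their values were seen. Alternatives changed the ranking gene, group size, covariates, array weights, filter, spot position (a repeat of 480 spots) and arrays.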

Additional observations from a re-analysis of the deposited data

Results flagged for a closer look

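Single arrays stood apart from the other 9 of their group for 13 of 146 sets of 10 values examined (8.9%; Dixon's criterion, where chance gives about 1 in 20). Among the Serpina1 copies, Serpina1e was at 2.65 in BXD12 of the high arrays, with the next at 1.37, and Serpina1f was at -1.77 in BXD15 of the low arrays, with the next at -0.73. Near the cluster, Btbd7 was at 2.25 in BXD33 (low) and Tcl1b2 at 0.91 in BXD5 (high). Spp2 was at -0.36 in BXD9 (low). Of the genes of smallest p, 4921534H16Rik was at -1.38 in BXD36 (high) and 1700017L05Rik at 1.00 in BXD9 (low). Kidney and vessel markers in this set were Synpo at 0.57 in BXD31 (high), Ptpro at -0.98 in BXD6 (low), Eng at -1.05 in BXD15 (low) and Pecam1 at 0.95 in BXD21 (high). The myelin gene Mog was at 0.66 in BXD15 (low) and the pancreatic lipase relative Pnliprp1 at -0.64 in BXD27 (low). BXD15 thus accounts for 3 of the 13.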

How the results depend on the processing

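The count of 0 genes past the adjusted threshold held under every alternative listed at the start, with smallest adjusted p-values (limma) of 0.237 for the score as a covariate over 31 arrays, 0.240 with the first principal component and 0.383 for 8 against 8 arrays. Leaving out each array in turn also gave 0, with 520 (without BXD15) to 913 (without BXD24) genes at an unadjusted p under 0.05. The covariate fit over 31 arrays had 1237 such genes. The fit of single probes had 1078 such probes, counted over the table of 23040 probes without those of Serpina1 genes rather than over 15090 genes. Only the later strains alone, an alternative chosen after seeing the data, called 1 gene, Hspb7; up to BXD14 its difference was 0.0169. The Serpina9 sign turned with Serpina1c alone (0.0613) and with 12 against 12 arrays (0.0100), and over single arrays left out its difference ran from -0.131 to 0.0139 (without BXD22). The Serpina3n sign turned with spot position removed (-0.0196) and in the later strains (-0.0114), and over single arrays left out it ran from -0.0055 (without BXD6) to 0.0979. The cause was not tested. No paired analysis was possible because each array is its own strain. The secreted liver list's median stayed between -0.02 and 0.01 when single arrays were left out.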

Other observations

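2 groups of genes were assembled by symbol after the values had been seen, from the presence of Rps23, Sdhd and Cox6c among the smallest p-values, and get no test. Of 68 cytosolic ribosome genes, 65 had the higher mean in the high arrays, 24 (35.3%) at an unadjusted p under 0.05, with a median difference of 0.29. Of 89 respiratory chain genes, 70 lay above 0, 25 (28.1%) at an unadjusted p under 0.05, with a median of 0.27. Of all genes, 52.8% lay above 0 and 4.85% had such a p in either direction. Rps23, Sdhd and Cox6c, from which the groups were drawn, are among the genes counted. No gene of either group passed after adjustment. The mean of the ribosome genes per array ran from 0.21 to 1.07 (median 0.63) in the high arrays, highest in BXD2, and from -0.17 to 0.63 (median 0.41) in the low arrays, lowest in BXD15. Respiratory genes ran from 0.15 to 0.73 (median 0.39) and from -0.21 to 0.50 (median 0.21). Both groups thus overlapped between high and low arrays. Within the strains up to BXD14 the medians were 0.63 for ribosome and 0.50 for respiratory genes, and 35 and 28 genes had an unadjusted p under 0.05, where 12.3% of all genes did. Within the later strains the medians were 0.21 and 0.12, with 6 and 4 such genes, where 5.2% of all genes did; 4 of 89 is near that share. Without BXD2 and BXD12, 10 ribosome and 13 respiratory genes had such a p, where 3.84% of all genes did, and without BXD15 17 and 16, where 3.45% did. Of the genes with values like the score over 31 arrays, B2m, the light chain of class I major histocompatibility molecules, and H2-Q10, a secreted class I molecule of liver, had r = 0.577 and r = 0.595; their differences were 0.55 and 0.45, and their adjusted p was 0.946.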
